A study of Mus musculus with 35 samples.

Results

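The regions described here are the stretches of spliceosomal and other small nuclear RNAs to which NXF1 or an SR protein was cross-linked in mouse P19 cells. Clusters of cross-link sites deposited for SRSF1 to SRSF7 and NXF1 were merged where they lay on the same strand with a gap of 30 nt or less. A merged region was kept where its midpoint fell in a same-strand gene of type snRNA or misc_RNA (small RNA genes of other kinds, such as 7SK and Y RNA) of the GENCODE vM1 annotation of mm9. This left 272 of 388969 regions, or 0.0699%, in 261 of 1910 such genes, and they were grouped by gene symbol into 17 families. They were 1 to 322 nt wide with a median of 18 nt. 217 of them lay in no other gene, 52 lay in an intron of another gene and 3 in an exon.

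P19 is a line of embryonal carcinoma cells. Each tested line stably carried NXF1 or 1 of SRSF1 to SRSF7 as a GFP fusion on a bacterial artificial chromosome, and the control line carried GFP with a nuclear localization signal (GFP-NLS). All lines also kept their own untagged proteins, although the authors report that endogenous NXF1 protein was lowered by NXF1-GFP. The artificial chromosome lines were clonal, so that effects of a clone and of its tagged protein cannot be told apart. After cross-linking at 254 nm, the GFP-tagged protein was precipitated and its RNA sequenced by individual-nucleotide-resolution cross-linking and immunoprecipitation (iCLIP), in 3 libraries each for NXF1, SRSF3, SRSF4 and SRSF6, 4 each for SRSF1 and SRSF5, 5 for SRSF2 and 6 for SRSF7, with 4 control libraries pooled into 1 file. A tag here is 1 cDNA at a listed position. A position is listed only if it passed the authors' threshold in that library, so 0 means that none was listed. The replicates are called biological, but no separate cultures are named, so the p-values below rest on the spread among these libraries and that spread could be technical.

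Spliceosomal snRNAs are short, abundant RNAs that recognise splice sites and form the catalytic centre of the spliceosome. U1, U2, U4 and U5 serve the major spliceosome and U11, U12 and U4atac the minor one, while U7 acts in the processing of histone mRNA 3′ ends. These RNAs are made by RNA polymerase II and are known to gain a ring of Sm proteins on a short U-rich site in the cytoplasm before they return to the nucleus. U6 and U6atac are made by RNA polymerase III, bind Lsm proteins near their 3′ end and are thought to stay mostly in the nucleus. Of the other families, 7SK holds the elongation factor P-TEFb inactive, RNase MRP and nuclear RNase P cut precursors of ribosomal and transfer RNA, telomerase RNA is the template for telomere repeats, and Y and vault RNAs are small RNA polymerase III transcripts. NXF1 is the main export receptor for mRNA, and SR proteins are splicing factors that bind RNA through RNA recognition motifs.

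The most tagged gene copies of U1, U2, U4, U7, U11 and U4atac are printed below 5′ to 3′ from their first annotated base, because the tags described later were placed on these sequences. Capitals mark the last match to the letters ATTTNT, used here as a stand-in for the Sm site. The copies lie on mm9 at chr3:96132348-96132513 (plus strand) for U1, chr1:72272814-72273004 (plus) for U2, chr5:115939468-115939608 (plus) for U4, chr6:124691243-124691304 (minus) for U7, chr4:131825995-131826128 (minus) for U11 and chr1:120355718-120355842 (minus) for U4atac.
U1: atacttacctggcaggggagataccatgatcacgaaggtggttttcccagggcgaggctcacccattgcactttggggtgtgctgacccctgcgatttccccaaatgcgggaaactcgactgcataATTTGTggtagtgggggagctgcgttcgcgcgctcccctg
U2: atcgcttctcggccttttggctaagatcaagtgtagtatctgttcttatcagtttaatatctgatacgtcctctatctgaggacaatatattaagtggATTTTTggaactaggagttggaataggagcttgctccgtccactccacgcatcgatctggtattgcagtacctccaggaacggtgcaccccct
U4: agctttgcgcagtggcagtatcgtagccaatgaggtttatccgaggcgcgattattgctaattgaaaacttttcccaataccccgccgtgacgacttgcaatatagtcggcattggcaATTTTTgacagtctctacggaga
U7: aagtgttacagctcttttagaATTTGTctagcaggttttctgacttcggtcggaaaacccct
U11: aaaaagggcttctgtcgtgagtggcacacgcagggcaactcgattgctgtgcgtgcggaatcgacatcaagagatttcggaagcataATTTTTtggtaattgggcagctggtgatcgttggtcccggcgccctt
U4atac: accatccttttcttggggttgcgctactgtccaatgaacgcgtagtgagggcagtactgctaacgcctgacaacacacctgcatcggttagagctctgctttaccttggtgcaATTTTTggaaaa

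For U6, U6atac, Y_RNA and 7SK, which are not Sm-class, the printed copies are those at chr15:68501846-68501952 (plus) for U6, chr2:27395325-27395450 (minus) for U6atac and chr6:47731623-47731724 (plus) for Y_RNA, and the merged region at chr9:78023138-78023265 (minus) for 7SK, which starts at base 176 of the gene. Capitals mark the 15 nt that held the most tags of the SR proteins together. They held 73.0% of these tags on U6, 26.5% on U6atac, 22.8% on 7SK and 44.5% on Y_RNA. Single SR proteins could differ, as on U6atac, where the richest 15 nt were bases 66 to 80 with SRSF3 and 88 to 102 with SRSF5.
U6: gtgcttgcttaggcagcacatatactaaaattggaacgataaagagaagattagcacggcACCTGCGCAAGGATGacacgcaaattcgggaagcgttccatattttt
U6atac: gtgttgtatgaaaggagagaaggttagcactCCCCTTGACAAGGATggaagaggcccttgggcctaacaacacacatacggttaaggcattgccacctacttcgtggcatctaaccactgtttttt
7SK: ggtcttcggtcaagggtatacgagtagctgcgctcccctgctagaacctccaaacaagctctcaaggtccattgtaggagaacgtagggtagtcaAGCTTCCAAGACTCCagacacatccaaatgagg
Y_RNA: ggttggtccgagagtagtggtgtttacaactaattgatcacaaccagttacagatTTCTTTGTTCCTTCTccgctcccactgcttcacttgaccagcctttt
Some copies of a family are the same in sequence, as with the 145 U6 genes that held a region and had 137 different sequences between them. How alike the others are was not measured. No source used here says how a cDNA that fits several copies was placed, so a single copy is uncertain and family sums carry the main comparison.

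Over the 31 libraries the regions held 609022 tags, or 2.49% of all listed tags. 10 regions held 66.7% of them. 7SK alone took 25.1% and had 98.4% of its tags in a single region. U5 took 16.2%, Y_RNA 15.3%, U2 11.1%, U6 6.52% over 147 regions, and U1 1.87% over 32 regions. A further 6.54% lay in 15 genes named only by a clone. Of these, AC120136.1, AC120136.2 and AC120136.3 shared 96.7%, 100% and 93.3% of their 12-nt words with U2, and AC027184.1 shared 31.8% with nuclear RNase P. The control pool, with 21880 listed tags, had a tag in 41 of the 272 regions.

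Listed tags per library ran from 108708 to 237488 for NXF1 and from 13038 to 4459523 for the SR proteins. Embryonal carcinoma markers were present, with 9 of 10 genes tagged and only Dppa5a at 0 (summed level 377 to 905 CPM, or tags per 1000000 listed tags, with NXF1 and 0 to 2927 CPM with SR proteins). Summed levels of the endoderm, neuron and muscle lists were at most 153 CPM in any library. The file headers of SRSF2 replicates 2 and 5 name SRSF1, so values that change without these libraries are also given without them.

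NXF1 libraries had 8.59%, 10.8% and 11.8% of their listed tags in these regions, with exact 95% intervals of 8.48 to 8.71, 10.6 to 10.9 and 11.6 to 11.99 that cover counting error only. In the 28 SR protein libraries the lowest share was 1.01%, the median 5.50% and the highest 17.4%, and the control pool had 6.70% (6.38 to 7.04). The means were 10.4 ± 1.64% with NXF1 and 6.43 ± 5.08% with SR proteins (SD, n = 3 and 28), a difference of 3.96 percentage points that an exact two-sided permutation test did not separate from the spread between libraries (p = 0.209). The share moved with library size. The 10 SR libraries over 1000000 tags had 1.01% to 2.72% and the 7 under 60000 tags 1.29% to 15.8%, as the plot of shares against library size shows. Among libraries of 50000 to 250000 tags, NXF1 had 10.4 ± 1.64% and 8 SR libraries 9.15 ± 4.27% (exact permutation p = 0.661), while among libraries whose header gives the later of the run years the difference was 6.44 points (13 SR libraries, exact permutation p = 0.00714). Among libraries of at least 50000 tags it was 5.24 points (exact permutation p = 0.0396). The part of library size in the share was not tested beyond these subsets.

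**Figure D1:**
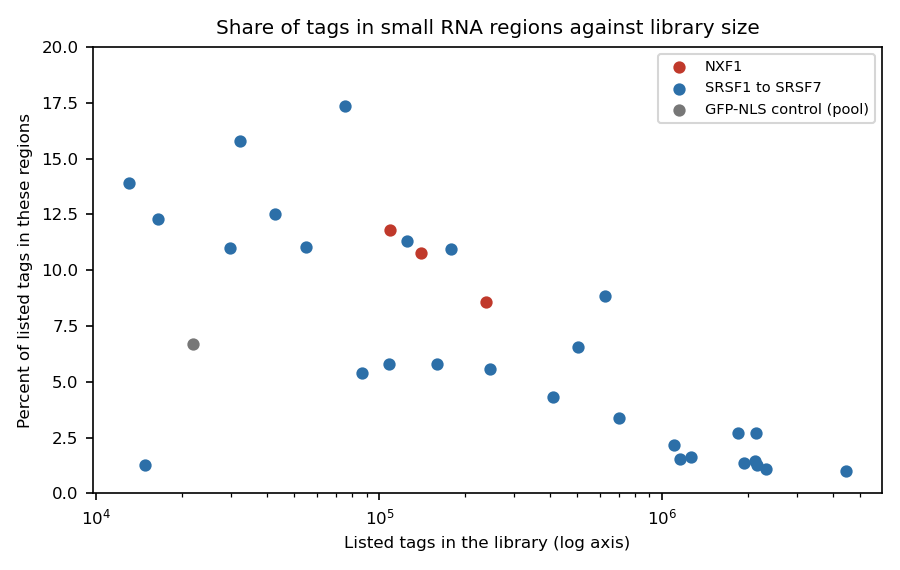
Percent of a library's listed tags that lay in the 272 small RNA regions (vertical axis) against the number of listed tags (horizontal log axis), 1 point per library. NXF1 (red) stands at 8.59% to 11.8%, SR libraries (blue) over 1000000 tags lie at 1.01% to 2.72%, and the control pool (grey) is at 6.70%.

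Among the 7 SR proteins the share differed beyond the spread between libraries, with 45.4% of the variation of its logarithm lying between proteins (permutation test, p = 0.0334). By their headers, all SRSF2, SRSF5 and SRSF6 libraries had the earlier run year and all SRSF1, SRSF3 and SRSF4 libraries the later. The median share was 10.95% in the earlier year and 3.37% in the later (15 and 13 SR libraries). Only SRSF7 had libraries of both years, so for the rest protein and run year cannot be told apart. The same holds for the SR comparisons below. SRSF5 averaged 11.01 ± 4.65% (n = 4), SRSF7 8.83 ± 5.70% (n = 6), SRSF2 8.63 ± 5.75% (n = 5), SRSF4 4.40 ± 2.41% (n = 3), SRSF1 3.92 ± 2.02% (n = 4), SRSF3 2.32 ± 1.74% (n = 3) and SRSF6 1.36 ± 0.229% (SD, n = 3). The 3 SRSF6 libraries held 1155384 to 2323026 tags each, so the low share of SRSF6 and large libraries cannot be told apart. Without SRSF2 replicates 2 and 5, SRSF2 averaged 12.6 ± 2.78% (n = 3), above SRSF5, and 55.9% of the variation lay between proteins (permutation p = 0.0111). Leaving out SRSF3 replicate 2 or 3, SRSF5 replicate 1 or 3, or any SRSF6 replicate moved p above 0.05, to at most 0.0759.

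NXF1 and the SR proteins differed in the makeup of their tags. Within these regions, NXF1 tags lay mostly on Sm-class snRNAs, with few on U6 and 7SK. The log2 ratio of tags on the 8 Sm-class families (U1, U2, U4, U5, U7, U11, U12 and U4atac) to tags on U6 and 7SK, which needs no library total, was 3.08, 2.61 and 3.35 in the NXF1 libraries. Over the 28 SR libraries it was -1.57 at the lowest, -0.09 at the median and 0.85 at the highest, and it was 1.16 in the control pool. All 3 NXF1 libraries therefore stood above every SR library and the control. This ratio was chosen after the values were seen and is given as a description with no test. Its range among SR libraries over 1000000 tags was -0.85 to 0.85 and among those of 50000 to 250000 tags -0.64 to 0.49. SRSF7 was lowest, at -1.57 to -0.19 over its 6 libraries.

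**Figure D2:**
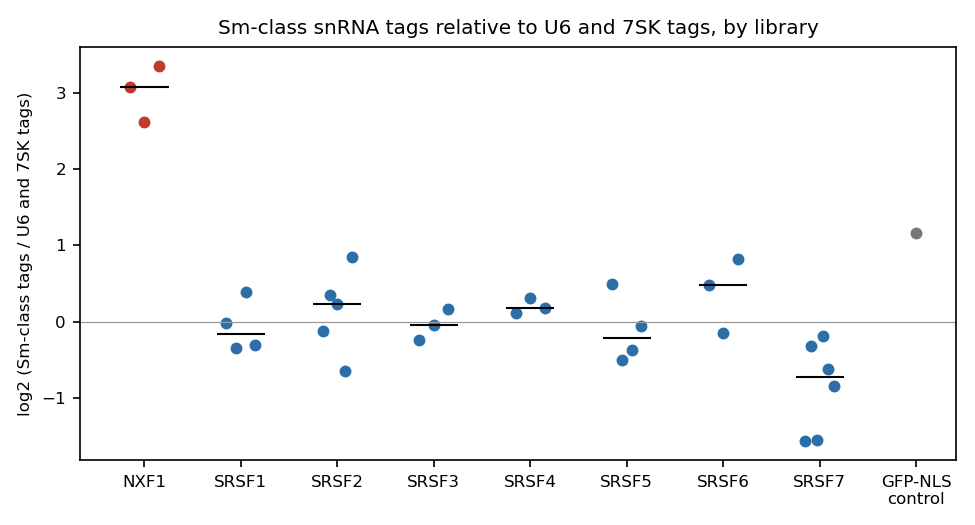
Log2 ratio of tags on the 8 Sm-class families to tags on U6 and 7SK (vertical axis), 1 point per library by protein, with a line at each group's median. The NXF1 points lie at 2.61 to 3.35, the SR points at -1.57 to 0.85 and the control pool at 1.16.

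Among Sm-class families, U4, U5, U1 and U11 rose with NXF1 relative to the mean of the SR proteins. U4, which pairs with U6 before spliceosome activation, had 6375, 9312 and 8150.3 CPM in the NXF1 libraries, against a lowest of 0, a median of 985 and a highest of 5037 CPM with SR proteins and 2834 CPM in the control pool. The groups did not overlap, and the log2 change was 3.37 ± 0.78 (SE; limma voom, Benjamini-Hochberg adjusted p = 0.0105). U5, which holds the exons during splicing, had 23323, 33578 and 40383 CPM with NXF1, against 0, 6246 and 27577 CPM (lowest, median and highest) with SR proteins and 19698 CPM in the control. Here 4 SR libraries reached the lowest NXF1 value, and the log2 change was 2.73 ± 0.86 (adjusted p = 0.0478).

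U1, which recognises the 5′ splice site, had 3655, 4724 and 4425 CPM with NXF1, against 107, 942 and 3696 CPM with SR proteins and 3885 CPM in the control pool. A single SR library reached the lowest NXF1 value (log2 change 2.69 ± 0.77, adjusted p = 0.0343). U11, its counterpart in the minor spliceosome, had 2307, 2266 and 3238 CPM with NXF1, against 60.6, 601 and 3294 CPM with SR proteins (log2 change 2.57 ± 0.74, adjusted p = 0.0343). In the control U11 had 823 CPM, below all 3 NXF1 libraries.

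U2, U7 and U4atac did not pass the test, and U12 was too rare under the midpoint rule to be tested. U2, which recognises the branch point, had 14081, 10487 and 15583 CPM with NXF1, against 937, 4305 and 35386 CPM with SR proteins and 8501 CPM in the control (log2 change 1.79 ± 0.74, adjusted p = 0.0844). U7 had 2758, 4474 and 5096 CPM with NXF1, against 0, 929 and 8725 CPM with SR proteins and 4845 CPM in the control (log2 change 2.42 ± 0.94, adjusted p = 0.0776). U4atac had 648, 556 and 82.8 CPM with NXF1, against 0, 56.4 and 552 CPM with SR proteins and none listed in the control (log2 change 2.74 ± 1.04, adjusted p = 0.0771). The control, 1 pool with no replicate, lay within the NXF1 range for U1 and U7 and below it for U2, U4, U5 and U11.

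Of the other families, vault RNA, RNase MRP and telomerase RNA rose with NXF1. Vault RNA had 1048, 1133 and 1407 CPM with NXF1, against 0, 62.2 and 614 CPM with SR proteins and none listed in the control, so the groups did not overlap (log2 change 4.48 ± 1.14, adjusted p = 0.0181). RNase MRP had 5853, 9233 and 7948 CPM with NXF1, against 0, 696 and 7825 CPM with SR proteins and 1691 CPM in the control (log2 change 3.49 ± 0.84, adjusted p = 0.0133). Telomerase RNA was much less tagged, at 185, 235 and 73.6 CPM with NXF1 against 0, 18.1 and 56.1 CPM with SR proteins (log2 change 3.13 ± 0.93, adjusted p = 0.0379). It had no listed position in the control. In the control pool, with its 21880 listed tags, 3 tags make 137 CPM. The pool could therefore miss vault RNA, telomerase RNA or U4atac at their SR medians.

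7SK and U6 were at the low end with NXF1. 7SK had 5007, 8613.5 and 5970.1 CPM with NXF1, against 2013.4, 14497 and 70782 CPM with SR proteins and 12706 CPM in the control, and U6 had 1297, 2095 and 1573 CPM with NXF1, against 497, 3602 and 24462 CPM with SR proteins and 5484 CPM in the control. Neither passed the test (log2 change -0.68 ± 0.80 and -0.78 ± 0.81, adjusted p = 0.465 and 0.411), and with trimmed-mean scaling their log2 changes were 0.42 and 0.24. Against the 8 SR libraries of 50000 to 250000 tags, which cover 5 of the 7 SR proteins, both were lower with NXF1 (log2 change -2.22 and -1.93, adjusted p = 5.96e-06 and 0.00359). As a share of the tags in these regions, 7SK made up 5.83%, 7.99% and 5.06% with NXF1, against 15.6%, 27.4% and 56.5% (lowest, median and highest) with SR proteins. For U6 the same shares were 1.51%, 1.94% and 1.33% with NXF1, against 3.45%, 7.31% and 36.5% with SR proteins.

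U6atac, Y_RNA, nuclear RNase P and the clone-named genes gave no call. U6atac, the minor spliceosome's U6, had 1036, 1183 and 901 CPM with NXF1, against 0, 1179 and 6983 CPM with SR proteins (log2 change 0.12 ± 1.02, adjusted p = 0.924), and no U6atac position was listed in the control. Y_RNA had 10278, 12781 and 14875 CPM with NXF1, against 134, 5727 and 32520.3 CPM with SR proteins and 5667 CPM in the control (log2 change 1.32 ± 0.80, adjusted p = 0.174). Nuclear RNase P stood at 126, 121 and 18.4 CPM with NXF1 and at 0, 8.64 and 409 CPM with SR proteins (log2 change 2.52 ± 0.96, adjusted p = 0.0772). The clone-named genes stood at 7954, 7032 and 8205 CPM with NXF1, against 505, 2374 and 12490.1 CPM with SR proteins and 914 CPM in the control (log2 change 1.97 ± 0.65, adjusted p = 0.0541).

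**Figure D3:**
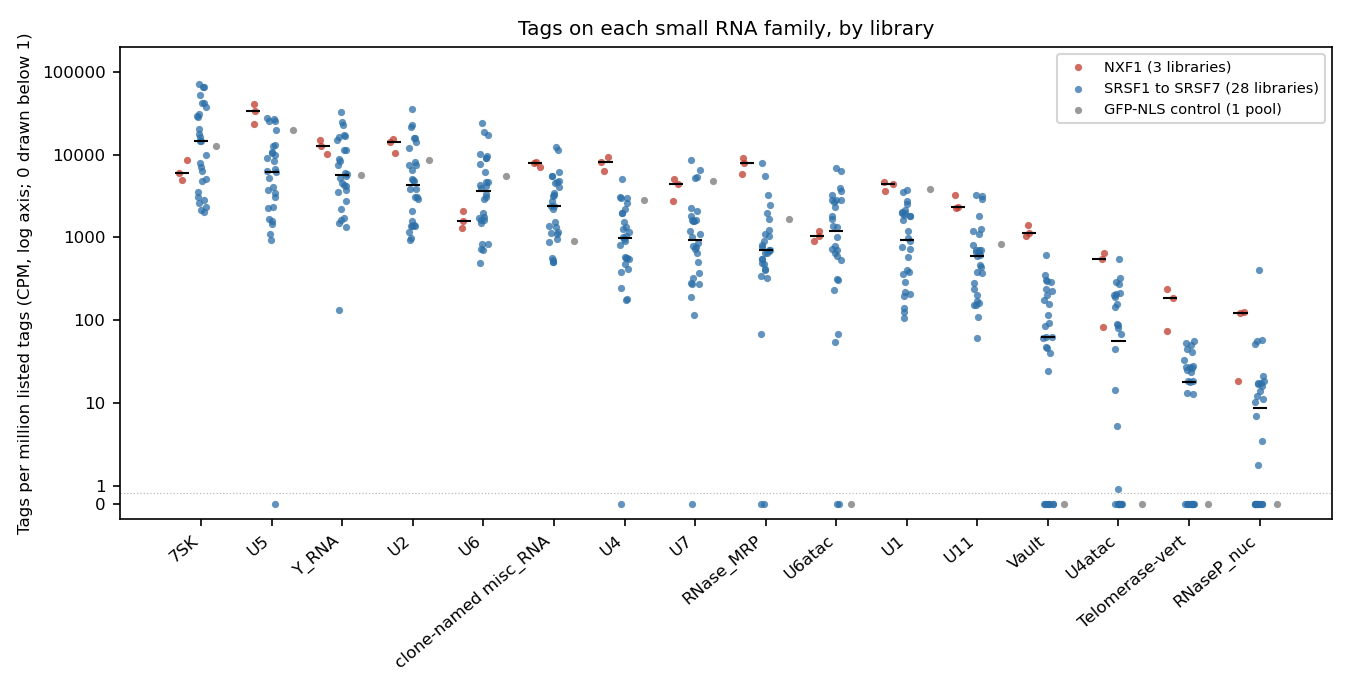
Tags per 1000000 listed tags on each family (vertical log axis, with 0 drawn below 1), 1 point per library, for NXF1 (red), SR proteins (blue) and the control pool (grey), with lines at the medians of NXF1 and of the SR proteins. NXF1 lies above every SR library for U4, vault RNA and telomerase RNA and in the lower part of the SR range for 7SK and U6.

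In all, 7 of the 16 tested families were called higher with NXF1 and 0 lower. Over all 5015 genes and families tested 3.25% were called higher and 3.53% lower, and the median log2 change was -1.93 over all and 2.55 over the 16 families. Without adjustment 12 families had a p under 0.05, and the limma-trend fit called 1. Trimmed-mean scaling moved the median over all genes to -0.80 and the split of calls to 317 higher and 4 lower, against 163 higher and 177 lower with library totals, and called 8 families, all higher, but not U5 (log2 change 3.84, adjusted p = 0.0691). In libraries of 50000 to 250000 tags the log2 changes of U4, U1, U5 and U11 were smaller, at 2.12, 1.17, 1.15 and 1.51 (adjusted p = 6.27e-05, 0.0118, 0.000453 and 0.0258). Leaving out any 1 NXF1 replicate left 0 family calls, with adjusted p of 0.0803 to 0.225 for the 7 families, while their log2 changes kept their sign (2.40 to 4.57). Leaving out an SR library ended only the U5 call, in 12 of 28 cases (adjusted p up to 0.0626). More binding per molecule and more RNA of a family in a line cannot be told apart in these data.

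**Figure D4:**
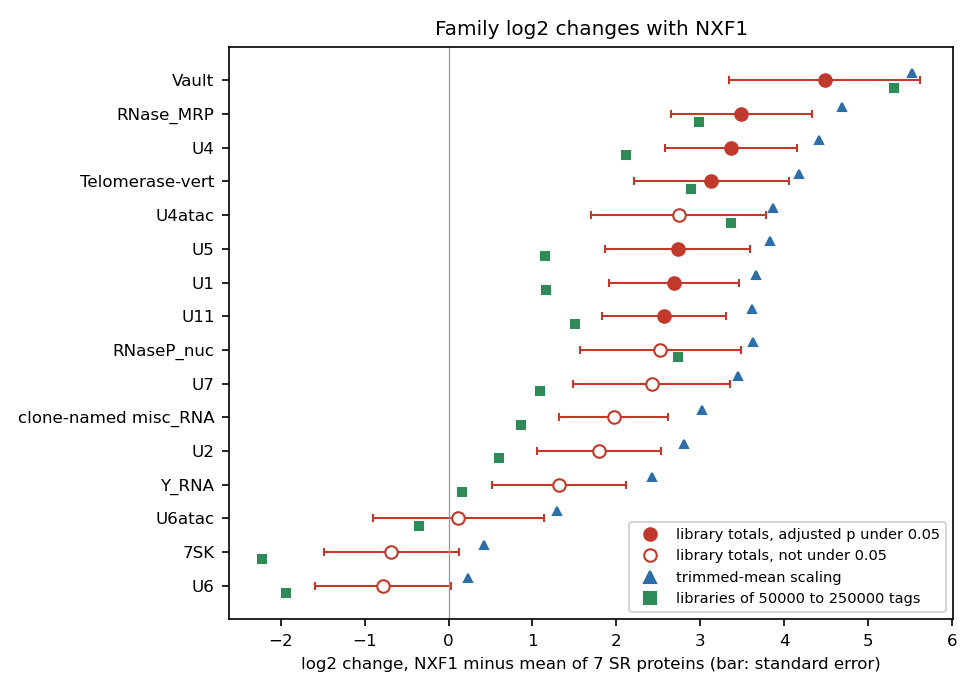
Log2 change of each family, NXF1 minus the mean of the 7 SR proteins (horizontal axis), with library totals as the scale (circles, filled where the adjusted p is under 0.05, bars are standard errors), with trimmed-mean scaling (triangles) and in libraries of 50000 to 250000 tags (squares). Vault RNA is at the top with 4.48, and U6 at -0.78 and 7SK at -0.68 change side with trimmed-mean scaling.

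Region by region, 115 of the 272 passed the filter on low values and 24 were called higher with NXF1, with 0 lower, where 10.1% of all 6649 tested regions were called higher and 1.64% lower. The 24 were 7 in U1, 5 in U5, 4 in U2, 2 in U4 and 1 each in U11, U6, RNase MRP, telomerase RNA, vault RNA and the U2-like AC120136.2. The last had 156 to 212 CPM with NXF1, against a median of 0 and a highest of 17.1 CPM with SR proteins (log2 change 5.31 ± 0.64). No SR library reached the 42.1 CPM that the filter asks for there. AC120136.2 therefore passed the filter through the NXF1 libraries alone, and its call is no separate evidence. Its most tagged relative AC120136.3 was not called (log2 change 2.10, adjusted p = 0.105). 4 U1 copies, at chr4:51825376-51825419, chr12:55797871-55797910, chr11:87236468-87236513 and chr11:87240319-87240359, had larger log2 changes of 4.71, 4.41, 4.24 and 4.02 than the most tagged copy at 2.53. At the first of these the level was 598 to 855 CPM with NXF1, against a median of 17.1 and a highest of 303 CPM with SR proteins. Without NXF1 replicate 1, 2 or 3 the regions called were 12, 7 and 10, all higher. In libraries of 50000 to 250000 tags 26 of 95 were higher and 16 lower, where 576 of all 2814 regions were higher and 383 lower.

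Among the SR proteins, SRSF5 had the most calls. Of the 16 families, 5 were higher with SRSF5 than with the other 6 SR proteins (1.56% of all genes and families tested were called higher). RNase MRP had 5562, 7825, 2440.0 and 1952 CPM with SRSF5, against a lowest of 0, a median of 650 and a highest of 3269 CPM with the other 24 SR libraries (log2 change 2.94 ± 0.75, adjusted p = 0.00894). U6atac had 6396, 6983, 3930.4 and 3216 CPM with SRSF5, against 0, 759 and 3624 CPM with the others, so that 1 other library reached the SRSF5 range (log2 change 2.75 ± 0.84, adjusted p = 0.0215). The clone-named genes, 7SK and U2 were also higher (log2 change 1.84, 1.90 and 1.81, adjusted p = 0.0234, 0.0443 and 0.0469). Without SRSF5 replicate 2 none of these 5 stayed under 0.05 (adjusted p = 0.0821 for RNase MRP). Without SRSF5 replicate 1 or 3 the calls of 7SK, U2 and the clone-named genes were also lost, and that of U6atac without replicate 1. Leaving out a library of another protein ended the U2 call in 14 and the 7SK call in 9 of 27 cases, and without SRSF2 replicates 2 and 5 SRSF5 had 3 calls.

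U4atac rose with SRSF3. Its levels were 552, 192 and 289.9 CPM with SRSF3, against 0, 14.2 and 321 CPM with the other 25 SR libraries (log2 change 3.14 ± 0.99, adjusted p = 0.0352), where 7.96% of all genes and families were called higher. Leaving out any SRSF3 replicate ended the call (adjusted p = 0.121 to 0.175), as did trimmed-mean scaling (log2 change 2.97, adjusted p = 0.138). Y_RNA made up 40.4%, 29.2% and 31.4% of the tags in these regions with SRSF3, above the range of the other SR libraries at 1.04% to 23.95%. In CPM the Y_RNA level with SRSF3 did not pass the test against the other SR proteins (log2 change 0.44 ± 0.79, adjusted p = 0.713).

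SRSF1, SRSF2, SRSF4, SRSF6 and SRSF7 had 0 called families by limma voom, with 1, 2, 0, 5 and 3 families at an unadjusted p under 0.05. The limma-trend fit called 1 family, lower with SRSF6. Over all genes and families tested 2.47%, 0.399%, 0.499%, 5.56% and 0.977% were called in these 5 comparisons. Without SRSF2 replicates 2 and 5, SRSF6 had 2 called families, both lower, and SRSF2 still had 0. With trimmed-mean scaling SRSF7 and SRSF3 each had 1 called family, both lower, and SRSF5 had 8, all higher.

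Single regions were called with all 7 SR proteins, but each time a smaller share of these regions was called than of all regions. It was 9.57% against 17.2% for SRSF1, 5.22% against 6.86% for SRSF2 and 12.2% against 38.4% for SRSF3. For SRSF4 it was 4.35% against 10.1%, for SRSF5 30.4% against 33.4%, for SRSF6 13.9% against 24.2% and for SRSF7 4.35% against 11.8%. SRSF5 had 35 higher and 0 lower of 115, where 10.4% of all regions were called higher and 23.0% lower. Of the 35, 15 lay in U6. The 35 include the U6atac region at chr1:70001601-70001608, with 47.8 to 145 CPM with SRSF5 and at most 10.2 CPM in any other SR library. No other SR library reached the 42.1 CPM of the filter there, so its call is no separate evidence. Whether other regions passed in the same way was not tested. SRSF6 ran the other way, with 16 regions called, all lower, where 24.2% of all regions were called and 5.14% were called lower. As for its share, the low levels of SRSF6 and its large libraries cannot be told apart. SRSF3 had 1 higher, the U4atac region, and 13 lower, against 18.5% and 19.9% of all regions.

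SRSF1 had 11 higher and 0 lower, 5 in U1 and 6 in U6, where 10.4% of all regions were higher and 6.83% lower. The mean level was higher with SRSF1 at some, as at U1 chr1:172958111-172958136 (247 CPM, against 69.3 CPM with the other SR proteins). At others it was lower, as at U1 chr3:19460252-19460286 (48.3 against 82.2 CPM) and U6 chr19:34028733-34028767 (18.1 against 30.7 CPM). The lowest SRSF1 library had no listed tag at either of these, so the direction there is uncertain. SRSF2 had 6 higher, 5 of them in U6, against 1.65% higher and 5.20% lower of all regions, and 13 higher and 2 lower without replicates 2 and 5. SRSF4 had 5 higher, against 9.20% higher and 0.887% lower of all regions. SRSF7 had 2 higher and 3 lower, against 7.28% and 4.48% of all regions, and its lower ones included the main U6atac region, at a mean of 309 CPM with SRSF7 and 2158 CPM with the other SR proteins (log2 change -2.66 ± 0.79, adjusted p = 0.0241). The SRSF7 split depended on the setting, with 4 higher and 7 lower by limma-trend, 15 higher and 1 lower in the earlier run year and 0 higher and 3 lower in the later one. With trimmed-mean scaling 1 region was called for SRSF1, 1 for SRSF4, 9 for SRSF3 (3 of them higher) and 28 for SRSF5, and the split of all region calls, higher to lower, was 170 to 195 for SRSF1 (689 to 454 with library totals), 1339 to 643 for SRSF3 (1227 to 1326) and 111 to 226 for SRSF7 (484 to 298).

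Tags were placed by base on the annotated copies. In U1 the commonest position was base 128, the second letter of the capitalised motif, with NXF1 (16.5% of tags on the most tagged copy), with SR proteins together (25.3%) and in the control (58.6% of 29 tags). Across U1 copies 69.2%, 75.6% and 82.5% (lowest, median and highest library) of NXF1 tags lay from 5 nt before to 10 nt after the motif's first base, against 33.8%, 58.8% and 89.0% in SR libraries and 79.5% in the control. The U1 groups overlapped. For U7 the share was 61.1%, 70.9% and 71.2% with NXF1, against 36.9%, 57.5% and 88.3% with SR proteins and 83.0% in the control.

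U2 tags were spread more widely, with 25.2% to 28.7% in that window with NXF1, 15.4% to 73.9% with SR proteins and 41.4% in the control. The 15 nt from base 89 to base 103, which begin before the motif, held 48.7% of the NXF1 tags of the most tagged U2 copy and 43.7% of the SR tags. SRSF3 had its commonest U2 position at base 150, with 11.9% of its tags. U4 and U4atac differed from the rest. In U4 the motif begins at base 119 and none of 3707 NXF1 tags, 8 of 14929 SR tags and none of 62 control tags lay in the window, while 70.5% of NXF1 tags and 65.0% of SR tags on the most tagged copy lay from base 68 to base 82. In U4atac, where the motif begins at base 114, 0 of 241 NXF1 tags and 1 of 2759 SR tags lay in the window. In these RNAs the motif starts 22 and 11 nt before the annotated gene end, and no listed NXF1 tag lay within 47 nt of the end of a U4 gene or within 30 nt of the end of U4atac. No listed SR tag lay nearer than 15 nt to the U4atac end. Whether tags could be listed so near these ends was not tested.

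**Figure D5:**
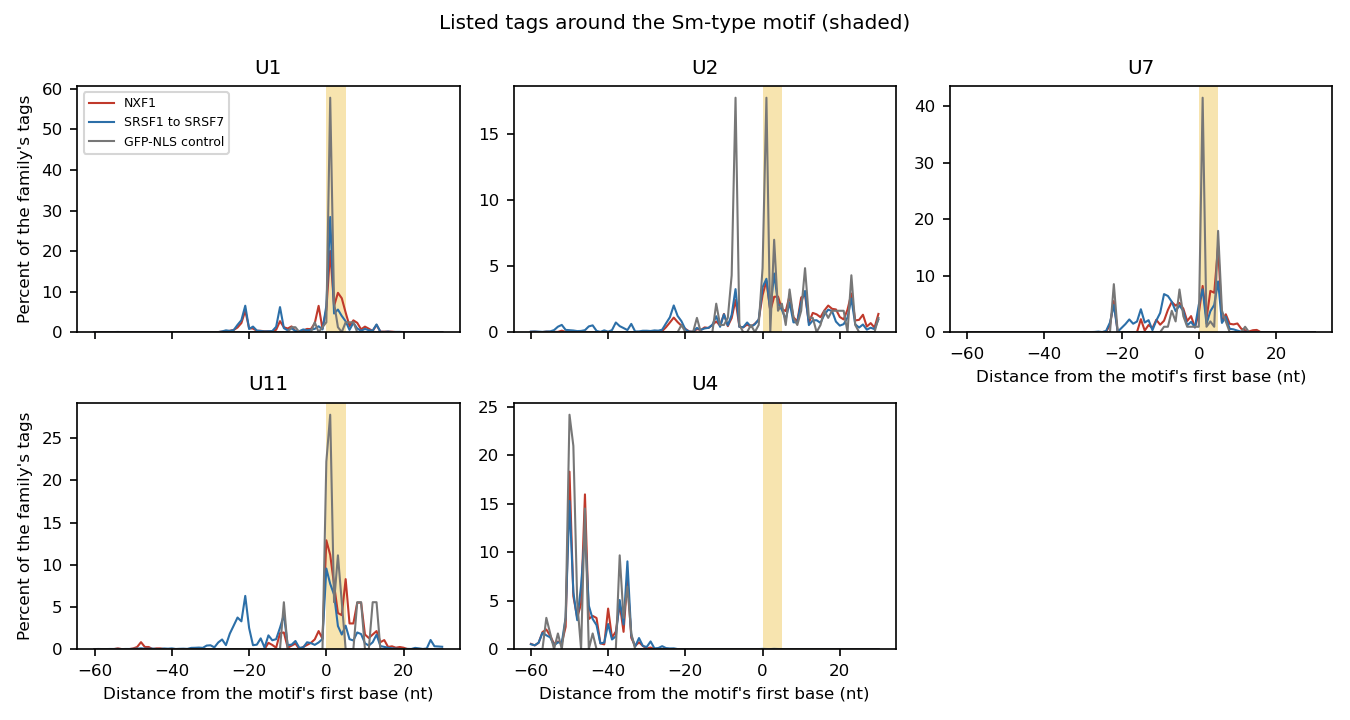
Percent of a family's listed tags (vertical axis) at each distance in nt from the first base of the motif (horizontal axis), for NXF1 (red), SR proteins together (blue) and the control pool (grey), with the motif shaded. U1, U7 and U11 peak on the motif in each of the 3 sets, U2 is spread out, and U4 has its tags about 50 nt before it.

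On U11 the tags of NXF1 and SRSF3 lay apart. The median tag position lay at base 89, 90 and 92 in the NXF1 libraries, on the motif at bases 88 to 93, and at base 66, 67 and 72 in the SRSF3 libraries. In the window around the motif lay 69.2%, 73.9% and 77.6% of U11 tags with NXF1, against 0%, 21.8% and 33.2% with SRSF3 and 49.3% to 69.4% over the libraries of SRSF1, SRSF4 and SRSF6. SRSF5 had 36.3%, 42.1% and 68.8%, with median positions at base 112, 77 and 89. SRSF2 and SRSF7 were split, with 23.5% and 37.0% in SRSF2 replicates 2 and 5 but 74.1% to 79.2% in the other 3, and 27.4% and 38.0% in SRSF7 replicates 4 and 6 but 49.1% to 86.9% in the other 4. In both proteins the low libraries had the most U11 tags (511 to 1312, against 24 to 224 in the others). These positions were read after the values were seen and carry no test.

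On U6atac the tags of different proteins lay at different places, counted in libraries with at least 20 U6atac tags. The median tag position lay at base 76, 91 and 98 with NXF1 and at 75, 76 and 77 with SRSF3. With SRSF4 it was 34, 35 and 35, with SRSF6 34, 36 and 36, and with SRSF7 24, 33 and 33, all within or before the capitalised bases 32 to 46 in the sequence above. SRSF1 lay between, at 46 to 48, and SRSF5 ranged from 59 to 100. Libraries of SRSF1, SRSF3, SRSF4 and SRSF6 lay within a few bases of each other, whereas SRSF5 and SRSF2 (25 to 56) were spread out.

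In U6 the commonest position was base 72 with NXF1 (42.7% of 110 tags on the most tagged copy) and with SR proteins together (36.1% of 2330 tags), inside the capitalised bases 61 to 75, and in the control (77.3% of 22). The exceptions were SRSF3 with base 87 and SRSF4 with base 61. In 7SK the richest 15 nt were bases 263 to 277 with NXF1 (23.4% of tags) and bases 271 to 285 with SR proteins together (22.8%). The richest 15 nt were also bases 263 to 277 with SRSF1, SRSF3, SRSF5 and SRSF6, each taken alone. In Y_RNA they were bases 55 to 69 with NXF1 (52.5%) and 56 to 70 with SR proteins (44.5%), in the pyrimidine-rich stretch in capitals. In vault RNA the median position was base 37 or 38 with NXF1, 26 or 27 with SRSF3 and 27 with SRSF7.

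The letters ATTTNT, searched on the transcribed strand in windows of 51 nt centred on each region, occurred in 34.7% of the 72 regions of Sm-class families and in 15.1% of all 272, against 11.8% of the 388969 merged regions. On the opposite strand the shares were 8.33%, 8.46% and 6.79%. Several overlapping copies share the same sequence, so these windows are not independent, and a match is not shown to be a bound Sm site.

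Of 42 tested protein genes of the same pathway, 1 was called with NXF1, lower, where 3.53% of all genes and families were called lower. Over lists of U1 snRNP, Sm core, U2 snRNP, U4/U6.U5, Lsm, 7SK RNP and snRNA synthesis and assembly genes, this was Sf3a1, a subunit of the U2 snRNP, which had no listed tag with NXF1 and 166 ± 153 CPM with SR proteins (SD, n = 28; adjusted p = 0.0371). None of 7 tested Sm core genes (median log2 change -0.22) and none of 10 U4/U6.U5 genes (median -2.61) was called, beside the median of -1.93 over all genes. SRSF6 and SRSF5 went opposite ways on 3 of 10 U4/U6.U5 genes, Prpf3, Prpf31 and Sart1, which were higher with SRSF6 (log2 change 2.98, 2.55 and 3.60, adjusted p = 0.0477, 0.0482 and 0.0126) and lower with SRSF5, where 4.89% of all genes and families were called higher with SRSF6 and 18.7% lower with SRSF5. With SRSF5 the log2 change was -3.42 for Prpf3 and -3.16 for Sart1, and Prpf31 had no listed tag, against 29.5 CPM with the other SR proteins. Each of these comparisons includes the other protein's libraries among those it is set against. Snrpf, an Sm core protein, Snrpa1, of the U2 snRNP, and Coil, the Cajal body protein coilin, were also lower with SRSF5 (log2 change -2.67, -2.93 and -2.52). In all, 6 of the 42 pathway genes were called lower with SRSF5, a smaller share than the 18.7% over all genes and families. Ints9, a subunit of the Integrator complex that processes snRNA 3′ ends, and Coil were lower with SRSF1 (adjusted p = 0.0242 and 0.0222). SRSF1 had no listed tag on either, and 1.22% of all genes and families were called lower. Ints9 was higher with SRSF3 (log2 change 2.89, adjusted p = 0.0173), the only call among the 42 genes, where 7.96% of all genes and families were called higher. Larp7, the La-related protein of the 7SK particle, was higher with SRSF6 (log2 change 3.07, adjusted p = 0.0329). Gemin6, a subunit of the complex that loads Sm rings, was higher with SRSF7, at 299 ± 279 CPM against 16.9 ± 71.2 CPM with the other SR proteins (SD, n = 6 and 22; log2 change 5.94, adjusted p = 2.29e-07), where 0.558% of all genes and families were called higher.

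At the edge of the rule, 4 regions overlapped an annotated snRNA but had their midpoint outside it, by 2 and 31 nt in U6 genes, 10 nt in a U2 gene and 22 nt in a U12 gene. The U12 region, at chr15:82980062-82980430 on the plus strand, held 17049 tags, against 45 tags in the 2 U12 regions that the rule kept, so that almost all U12 tags fell outside the rule. Counted by overlap, U12 had 4270, 4567 and 5814 CPM with NXF1, against 0, 861 and 2885 CPM (lowest, median and highest) with SR proteins and 1828 CPM in the control (log2 change 2.78 ± 0.80, adjusted p = 0.0347). The nearest regions inside, with their midpoint 1 nt from a gene end, held 19 to 491 tags.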

How the data were processed

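iCLIP tags were measured in 28 SR protein libraries, 3 NXF1 libraries and a pool of 4 GFP-NLS control libraries. Per the file headers, the authors mapped cDNAs to mm9 and kept positions with a false discovery rate under 0.05 from 100 permutations over a neighbourhood of 15 nt, with annotation of Ensembl 59. The deposited values are scores, whole-number cDNA counts whose sign gives the strand, 1 per listed position. CASAVA 1.4 and mm9 are given in the submitters' processing notes, and none of the sources used here names the aligner. Totals of listed tags (13038 to 4459523) are therefore not sequencing depth.

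Pooled cluster files were merged and members taken by midpoint. Tags per region and per gene or family were analysed with limma voom (limma 3.58.1, R 4.3.3) in 1 fit over 31 libraries, with listed tags as the scale. NXF1 was set against the mean of the 7 SR proteins, and each SR protein with the average of the remaining 6. Features needed 42.1 CPM (10 tags in the median library) in 3 libraries and 15 tags in all. This kept 115 of 272 members, 185 of which had 15 tags or more. Adjusted p (Benjamini-Hochberg, over all 6649 regions or all 5015 genes and families) under 0.05 was called. Because the values are listed-position scores and not raw read counts, no count model was used. Shares were compared with exact permutation tests, or with 100000 resamples among SR proteins. Named were every tested family, the most tagged region of each, up to 10 called regions per comparison by size of change, and fixed lists of pathway genes. The members and lists were chosen with earlier results of these data known. Alternatives covered scaling, filter, limma-trend, replicate block, library size, membership and single libraries. Library-size and run-year subsets were chosen after seeing the data. The fit was tested on simulated data, where decreases were called less often than increases of the same size, so that 0 lower calls with NXF1 carry less weight. Pooled tag files of the 8 proteins were not used. Python 3.11.15, NumPy 2.4.6, pandas 2.3.3, SciPy 1.17.1 and matplotlib 3.10.9 were used. The printed sequences came from the mm9 genome, and a further sequence is not reported here.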

Additional observations from a re-analysis of the deposited data

Results flagged for a closer look

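The family levels, the share of tags and the Sm-class ratio were searched within each protein with 4 to 6 libraries, or 72 groups. In 6 of these, all of family levels, 1 library stood far from the rest, where chance alone would give about 1 in 20. Nuclear RNase P had 409 CPM in SRSF5 replicate 3, with 51.8 CPM in the next library, and 17.2 CPM in SRSF7 replicate 6, with 1.79 CPM in the next. RNase MRP had 1691 CPM in SRSF7 replicate 5 (767 CPM in the next), U4atac 67.9 CPM in SRSF7 replicate 4 (0.907 CPM in the next) and vault RNA 614 CPM in SRSF7 replicate 1 (174 CPM in the next). The clone-named genes had 11286 CPM in SRSF2 replicate 1 and 4751 CPM in the next library. In each case the high value belonged to 1 library and was not shared by the other libraries of that protein.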

How the results depend on the processing

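The higher share of NXF1 kept its sign in every setting run and passed the test with libraries of at least 50000 tags (5.24 points) and of the later run year (6.44). Leaving out a library gave 3.26 to 4.86 points for NXF1, and 40.7% to 57.4% of variation between SR proteins. Region calls with NXF1 (24) were 7 with no CPM filter, 5 with limma-trend and 7 to 31 when a library was left out. In libraries of 50000 to 250000 tags they were 42, where 959 of all 2814 regions were called, against 778 of 6649 in the main fit. Region calls over the 7 SR comparisons (92) were 46 with no CPM filter and 20 with limma-trend. Family calls with NXF1 (7) were 0 with no CPM filter, 1 with limma-trend and 0 to 9 when a library was left out. They were 13 with at least 50000 tags, 12 in libraries of 50000 to 250000 tags (10 higher and 2 lower) and 12 in the later run year. Calls over all genes and families also rose, from 340 of 5015 to 2204 of 4785, 384 of 1853 and 1230 of 4152 in that order. Of these, 265, 234 and 221 were higher. Family calls over the SR comparisons (6) were 10 with trimmed-mean scaling, 2 with no CPM filter, 1 with limma-trend, 19 with at least 50000 tags, and 1 (without SRSF5 replicate 2) to 11 (without SRSF1 replicate 4) when a library was left out.

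Replicate numbers did not pair the samples, since deviations of same-numbered libraries had a median correlation of 0.0015 over 91 pairs and only 23 pairs were above 0.1. With the replicate number as a block, 6 families and 22 regions were called with NXF1, and 10 families over the SR comparisons, and the SRSF7 regions split into 6 higher and 0 lower.

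The direction turned for 7SK (log2 change 0.42) and U6 (0.24) with trimmed-mean scaling. U6atac turned with the block (-0.0087), with at least 50000 tags (-0.19), in libraries of 50000 to 250000 tags (-0.35) and without SRSF1 replicate 4 (-0.04) or SRSF2 replicate 3 (-0.070), with leave-one-out values of -0.070 to 0.23. Of the regions, U6 at chr15:79918947-79918973 turned with SRSF1 in libraries of 50000 to 250000 tags (-0.021), AC027184.1 with SRSF7 in the later run year (0.10) and U6 at chr17:66435512-66435520 with SRSF7 in the earlier run year (1.46). The causes were not tested. Of 88 named family and region results, 82 never turned in any setting run. The listed positions set the precision for the rare families, where a library may hold no listed tag.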
